A study of Auxenochlorella pyrenoidosa with 18 samples.

Results

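Close convergent gene pairs are neighbours that point at each other, with the left gene on the plus strand, the right gene on the minus strand and less than 200 bases between the predicted ends of their transcripts. In the predicted gene models of the green alga Auxenochlorella pyrenoidosa, 1263 of the 9053 neighbouring pairs met this rule. They held 2526 different genes, which is 24.6% of the 10284 models (95% Wilson interval 23.7 to 25.4%). The rule sorted the genes of each scaffold by start and took neighbours without overlap whose gap, the number of bases between the transcript ends, was under 200. It also asked for a predicted transcript end on the transcript with the longest coding sequence of both genes, and each gene is described by that transcript. Of 2914 convergent neighbours, 1 overlapped and 1 further pair lacked a transcript end. The other 1649 pairs lay at least 200 bases apart and are called far pairs. All 2526 genes of the close pairs also carried a stop codon, and 96.1% of them had both a start and a stop codon. Models with both codons are called complete below, which says nothing about their score. The score of a whole gene model had a median of 0.1 in close and 0.09 in far pairs, with a 5th percentile of 0.01 in both.

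The series sampled strain FACHB-9 as whole cells during a move from growth on glucose and urea to growth in light. Its 18 messenger RNA libraries make 6 groups of 3, namely heterotrophy at 0 h, 24 h and 72 h, and phototrophy at 2 h, 8 h and 24 h. Cells entered the light after their glucose was used up and the broth was diluted before sampling, so the phototrophic groups share that history. The labels name no genetic change in any group, and the 3 libraries of a group come from independent experiments run in 1 batch. The values below are positions in the genome annotation of the series, which belongs to no library. Levels of RNA in the 6 groups were not analysed here, and the depth of the libraries is unknown here.

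A gene ends its message behind the stop codon, where the RNA is cleaved and a poly(A) tail is added. The stretch between the stop codon and that site is the 3' untranslated region, which can carry signals for the stability, the location and the translation of the message. In convergent neighbours both 3' ends share 1 stretch of DNA, and polymerases that run past their cleavage sites move toward each other. In yeast and other compact genomes such pairs are known for messages that overlap at their ends and for termination signals that serve both strands.

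Most close pairs lay much nearer to each other than the limit of 200 bases. The median gap was 60 bases (95% interval 56 to 66, n = 1263 pairs), and the 25th and 75th percentiles were 25 and 116 bases. A gap under 20 bases was found in 284 pairs, which is 22.5% of the close pairs, and a gap under 100 bases in 862 pairs or 68.3%. These gaps chose the members, so they describe the pairs and test nothing. The shortest gap was 1 base, seen in 7 pairs, and no pair touched with a gap of 0. Gaps that short were found in no other orientation. Neighbours that overlapped were left out of this comparison. Among those without overlap, the shortest gap was 95 bases in 2888 divergent pairs and 46 bases in 3241 pairs on 1 strand. Neither orientation held a gap from 0 to under 40 bases, where 469 convergent pairs lay. All of these are gaps between predicted models. What sets the shortest gap of each orientation, or the near absence of overlap, was not tested.

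The 5 pairs named for the shortest gap show what lies on either side of a single base. On scaffold00132, g1658 ended at base 216218 and g1659 ended at base 216220, with 3' untranslated lengths of 28 and 101 bases. On scaffold00178, g1957 and g1958 ended at bases 683806 and 683808, with 3' lengths of 61 and 106 bases. On scaffold00279, g2574 and g2575 met at bases 495530 and 495532, with longer 3' lengths of 347 and 220 bases. Scaffold00902 held 2 such pairs. The first was g6397 and g6398, which ended at bases 1001677 and 1001679 with 3' lengths of 137 and 163 bases. The second was g6462 and g6463, which ended at bases 1366442 and 1366444 with 3' lengths of 180 and 70 bases. All 10 genes were complete models, with gene scores of 0.03 to 0.37, and the gene names and products are not paired with the models in the file. The distance between the stop codons in these 5 pairs ranged from 130 to 568 bases, so a gap of 1 base went with little and with much untranslated sequence.

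The gaps did not fall evenly on all lengths. In 604 of the 1263 close pairs (47.8%, 95% Wilson interval 45.1 to 50.6%) the gap ended in the digit 6. Each of the other 9 last digits held 60 to 81 pairs. The most frequent gap was 6 bases, with 79 pairs, followed by 26 bases with 47, 16 and 46 bases with 45 each, and 36 bases with 42. The same digit ended 937 gaps (56.8%) of the 1649 far pairs. All 659 divergent neighbours under 200 bases apart had a gap that ended in 5. On the 19 scaffolds with at least 20 close pairs, the share of gaps ending in 6 ranged from 34.6% on scaffold00132 to 76.9% on scaffold00760. The gaps of these 604 pairs thus stood on a ladder with steps of 10 bases, while the other 659 pairs were spread over the remaining digits. Close pairs on the ladder had a median 3' length of 153 bases (95% interval 144 to 158, n = 1208 genes), and those off it had 167 bases (158 to 179, n = 1318). What sets the ladder was not tested.

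**Figure D1:**
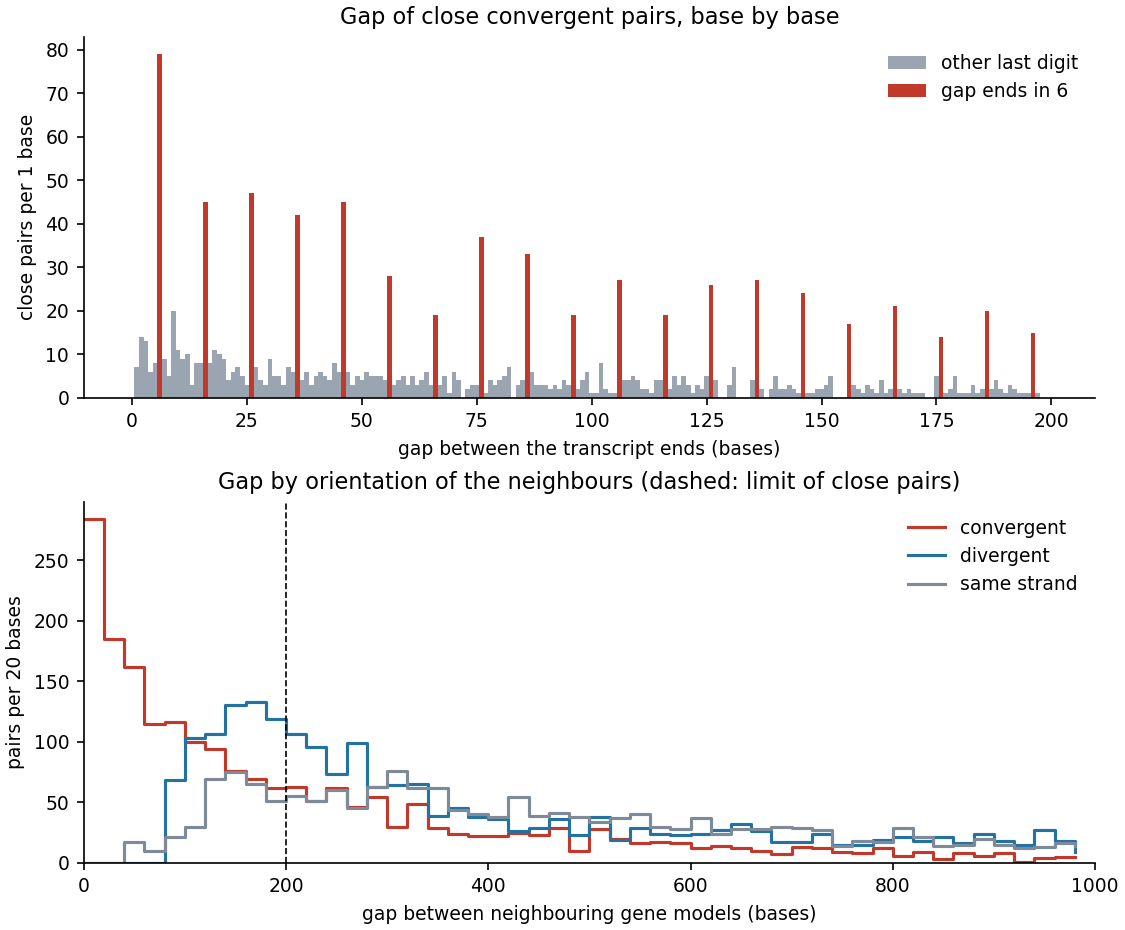
The upper plot counts close convergent pairs at each gap in bases, with gaps that end in 6 in red, and the lower plot counts neighbouring pairs per 20 bases of gap for the 3 orientations up to 1000 bases. The red bars stand above the grey ones in steps of 10 bases, with 79 pairs at a gap of 6 bases, and convergent pairs are the only kind below 40 bases.

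The 3' untranslated region of a gene in a close pair had a median length of 158 bases (95% interval 153 to 165, n = 2526 genes). The 5th and 95th percentiles were 35 and 521 bases, and single genes ranged from 20 to 1744 bases. In far pairs the median was 128.5 bases (95% interval 123 to 134, n = 3298), with 5th and 95th percentiles of 24 and 580.15 bases. The difference depended on the ladder. Where the gap ended in 6, the medians were 153 bases in close and 112 bases in far pairs (95% intervals 144 to 158 and 105 to 118). With other last digits they were nearer, at 167 and 155 bases, and their intervals overlapped (158 to 179 and 144 to 168). These intervals come from the ranks of the values and treat genes as independent, which neighbours are not. The gap starts where the 3' untranslated region stops, so a longer region shortens the gap of the same pair of stop codons. All of these differences are given without a test.

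Within the close pairs the 3' length was shorter in the narrowest gaps. The median was 146.5 bases in the 284 pairs less than 20 bases apart and 146.5 bases in the 278 pairs from 20 to under 50 bases apart. It was 171 bases from 50 to under 100 bases (300 pairs), 173.5 from 100 to under 150 (237 pairs) and 172.5 from 150 to under 200 (164 pairs). Beyond the limit it was lower with each wider class, from 153 bases in the 430 pairs from 200 to under 400 bases apart to 109 bases in the 508 pairs at least 3000 bases apart. The longest medians therefore belonged to pairs from 50 to under 200 bases apart, and not to those that nearly touch.

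Very short 3' untranslated regions were rare in close pairs. A length under 30 bases was predicted for 100 of the 2526 genes (3.96%, 95% Wilson interval 3.27 to 4.79%), against 321 of the 3298 genes in far pairs (9.73%, 8.77 to 10.8%). The share lay between 3.24 and 4.43% in the 5 gap classes of close pairs. It was 5.81% from 200 to under 400 bases and 13.8% at 3000 bases and over. At the other end, 140 genes of close pairs (5.54%) and 233 genes of far pairs (7.06%) had a 3' untranslated region of 500 bases or more. No gene of either kind had a length under 20 bases. The Wilson intervals treat genes as independent, which neighbours are not, and no test was made of these shares.

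**Figure D2:**
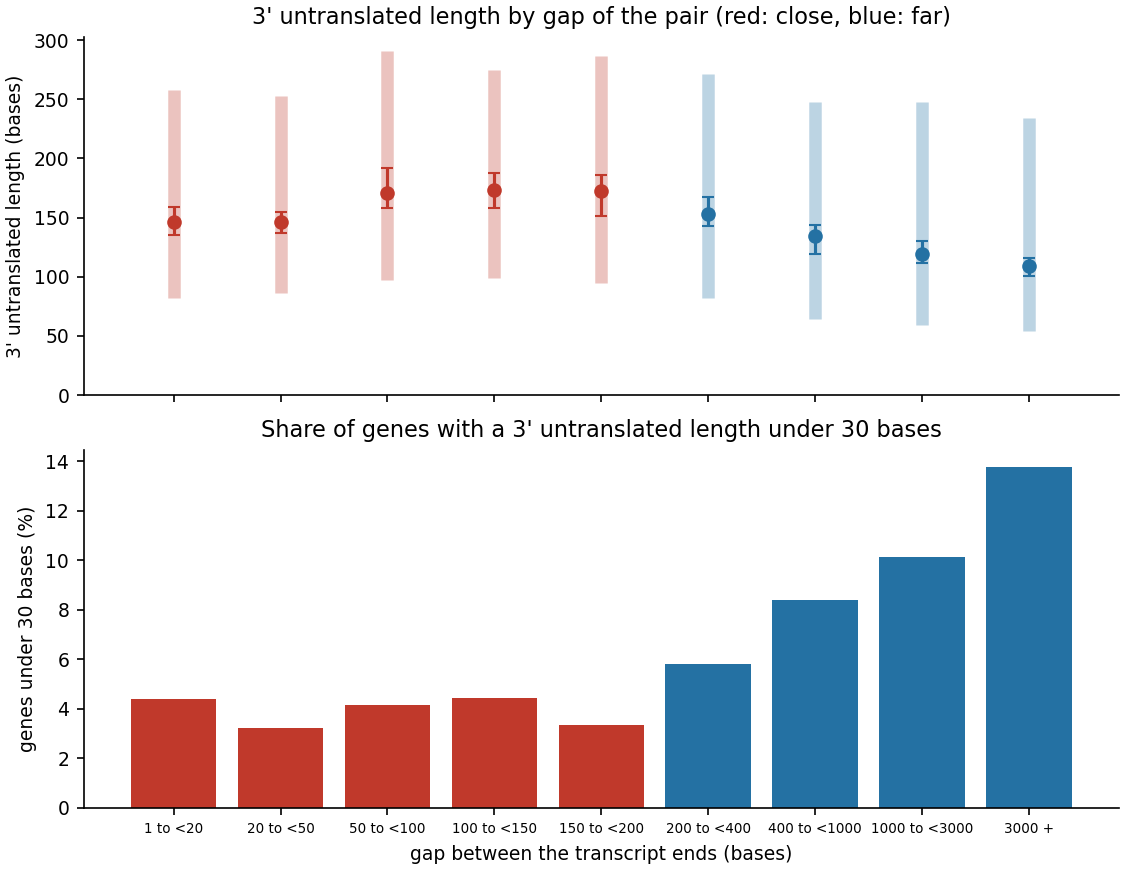
The upper plot shows the 3' untranslated length in bases for genes of convergent pairs in 9 classes of gap, with points for medians, thin bars for their 95% intervals and wide bars for the quartiles, and the lower plot shows the percentage of genes with under 30 bases. Medians of the close classes in red lie between 146.5 and 173.5 bases and those of the far classes in blue go down from 153 to 109 bases, while the share of very short regions goes up from 5.81 to 13.8% across the far classes.

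The space of a close pair was shared unequally between its genes. The longer 3' untranslated region of a pair had a median of 253 bases and the shorter one 98 bases. The longer was at least 2 times the shorter in 715 pairs (56.6%) and at least 4 times in 315 pairs (24.9%). Far pairs were more unequal still, with 62.8% at 2 times or more and 31.1% at 4 times or more, so inequality is not particular to close pairs. The strands held the longer region about equally often. The plus-strand gene had the longer region in 621 close pairs, the minus-strand gene in 638, and 4 pairs were equal. On the 43 scaffolds with at least 5 close pairs, the median difference of plus minus minus strand was above 0 on 19 and below 0 on 24 (median over scaffolds -4 bases, 95% interval -19 to 27.5; exact sign test, two-sided, p = 0.542, adjusted p = 0.859 over 8 tests).

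The 5 most unequal pairs differed by 32.7 to 47.4 times. In g6596 and g6597 (scaffold00961, bases 59146 to 73120) the plus-strand gene had 1186 bases and the minus-strand gene 25 bases. In g9908 and g9909 (scaffold01279, bases 66926 to 79870) the lengths were 1187 and 28 bases. The other 3 had the long region on the minus strand, with 23 and 787 bases in g6908 and g6909, 22 and 726 bases in g378 and g379, and 22 and 720 bases in g6265 and g6266. All 10 of these genes were complete, with gene scores of 0.02 to 0.27. The lengths of both partners were only weakly related across pairs, with a Pearson r of -0.12 and a Spearman rho of -0.12 on log2 lengths over 1263 close pairs, and -0.04 and -0.03 over 1649 far pairs. Partners of a close pair lie on both sides of 1 gap that the rule limits, and what sets these values was not tested. Coding lengths of partners gave a Pearson r of 0.06 in close and 0.09 in far pairs.

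The longest 3' untranslated region of any close pair belonged to g5302 on scaffold00734, with 1744 bases, whose transcript ended at base 307298, 5 bases before that of g5303. The partner g5303 had 128 bases and a short coding sequence of 255 bases. Next came g10162 (scaffold01327) with 1438 bases and g8795 (scaffold01204) with 1427 bases, against 133 and 93 bases in their partners g10163 and g8796. On the minus strand g3910 (scaffold00514) had 1365 bases and g641 (scaffold00047) had 1306 bases. In each of these 5 pairs the other gene had between 93 and 182 bases, so none of the 5 joined 2 very long ends. Over all close pairs, the shorter of both regions measured at most 650 bases.

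The stop codons of a close pair were a median of 449 bases apart (95% interval 433 to 464, n = 1263 pairs), and the 5th and 95th percentiles were 189.1 and 1033.8 bases. In far pairs the median was 1716 bases (1549 to 1895, n = 1649). Summed over all close pairs, 667122 bases lay between stop codons. Of these, 522813 were 3' untranslated exon sequence and 92647 were gap, and 51662 were introns in the untranslated part. That is 5.64 bases of 3' untranslated sequence per base of gap, against 0.155 in far pairs. In a close pair the 3' untranslated regions took a median of 86.0% of the distance (95% interval 85.0 to 87.0%). In 868 close pairs (68.7%) the gap was smaller than either 3' untranslated region.

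The distance between stop codons holds the gap and both 3' ends, so it is tied to the rule. Across pairs it followed the gap with a Spearman rho of 0.36 in the 1263 close pairs and 0.92 in the 1649 far pairs, and the summed 3' length with a rho of 0.93 and 0.10. The gap lies within this distance, so a pair with stop codons under 200 bases apart is close by construction. There were 74 such pairs, and 197 of 198 pairs from 200 to under 300 bases were also close, where 3' ends of at least 20 bases leave a far pair little room. The share was 77.7% from 400 to under 500 bases, 48.3% from 600 to under 800, 20.4% from 1000 to under 1500 and 1.63% from 3000 to under 10000. Across the same classes the summed 3' length of a pair had a median of 61 bases below 100 bases, 211.5 from 200 to under 300, 401 from 500 to under 600 and 581 from 1000 to under 1500 bases. Beyond 1500 bases it was lower again, with 321 bases up to 3000 and up to 10000 bases and 339.5 bases above that. The sum cannot exceed the distance, which holds it down in the narrow classes. The shorter region of a pair had a median of 47 bases at stop distances from 100 to under 200 bases, 99.5 from 500 to under 600, 126 from 1000 to under 1500 and 73 from 1500 to under 3000.

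**Figure D3:**
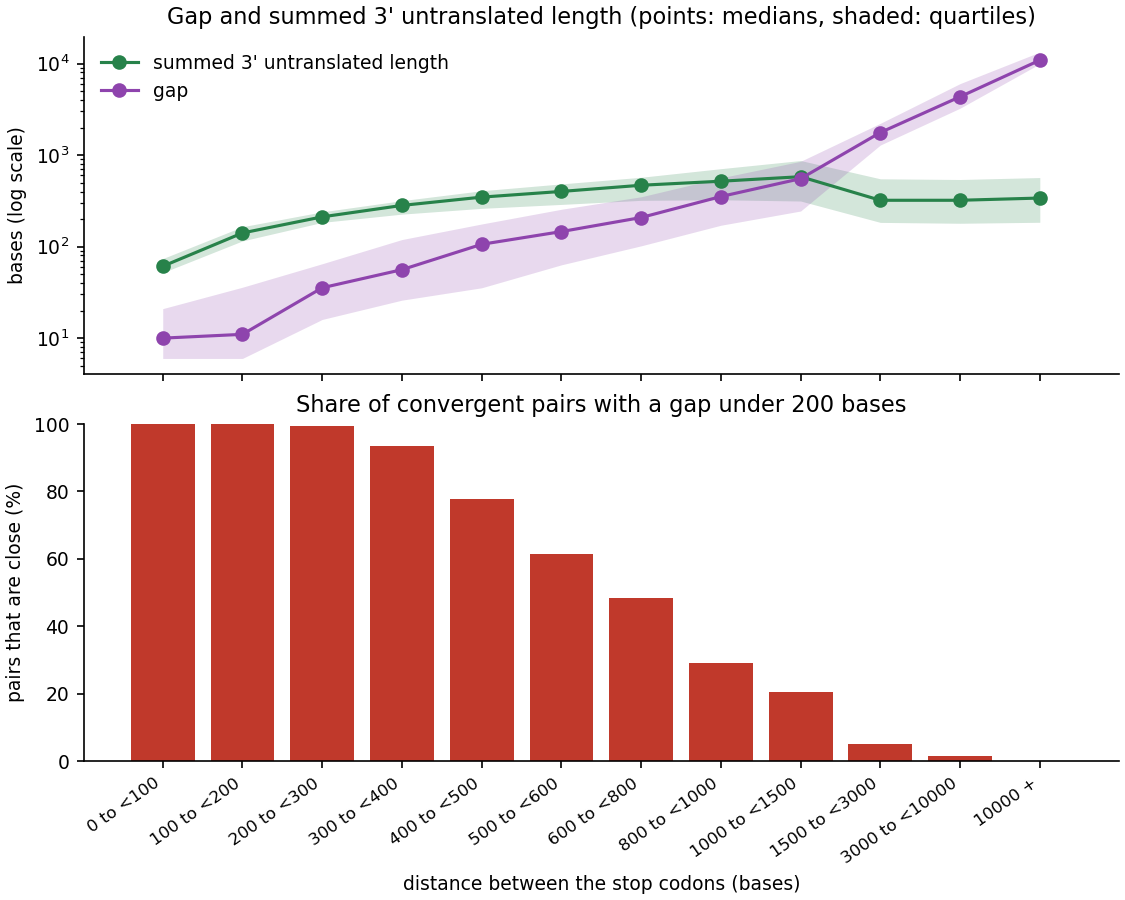
The upper plot shows the median gap and the median summed 3' untranslated length of convergent pairs, in bases on a log scale with quartiles shaded, by class of distance between the stop codons, and the lower plot shows the percentage of pairs with a gap under 200 bases. The summed length reaches 581 bases from 1000 to under 1500 bases and is 321 bases in the next class, where the median gap is 1766 bases.

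The tightest pairs were picked for the shortest distance between stop codons, so their 3' untranslated regions are short by construction. In g3056 and g3057 (scaffold00366, bases 1640567 to 1649281) the stop codons had 55 bases between them, made up of 25 and 24 untranslated bases and a gap of 6. In g8249 and g8250 (scaffold01136) the distance was 59 bases, with 29 and 24 untranslated bases and again a gap of 6. The next were g7075 and g7076 (scaffold01003) with 77 bases, g195 and g196 (scaffold00012) with 87 bases and g3238 and g3239 (scaffold00366) with 88 bases. The 10 genes had 3' lengths of 23 to 50 bases and all were complete models, with gene scores of 0.01 to 0.47. More broadly, 256 close pairs (20.3%) had stop codons nearer than 294 bases, which is 2 times the median 3' untranslated length of 147 bases over all 9407 genes with a predicted transcript end. A far pair can hardly be that near, since its gap alone takes at least 200 bases.

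The pairs with the widest distance had introns behind the stop codon. In g8789 (scaffold01204, bases 425259 to 435343) the coding sequence ended at base 428904 and 1 intron carried the transcript on to a point 19 bases before the end of g8790. This pair had stop codons 6625 bases apart, with only 61 and 167 bases of 3' untranslated exon sequence. The pairs g7827 and g7828 (scaffold01012), g2234 and g2235 (scaffold00243), g80 and g81 (scaffold00012), and g8321 and g8322 (scaffold01136) followed, with distances of 5245, 4556, 4438 and 4112 bases. The plus-strand genes of these had 4, 2, 1 and 4 introns in the 3' untranslated part. All 9 close pairs with stop codons at least 3000 bases apart had such an intron, as did 33 of the 74 that were at least 1000 bases apart.

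Introns in the 3' untranslated part were otherwise uncommon in close pairs. They were predicted in 43 of 2526 genes (1.70%, 95% Wilson interval 1.27 to 2.29%), against 142 of 3298 genes in far pairs (4.31%, 3.66 to 5.05%). Of the 43 genes, 27 had 1 such intron, and g641 had the most with 12. Their introns summed to a median of 640 bases per gene and ranged from 109 to 6378 bases. Such introns lengthen a predicted transcript toward its neighbour and so enter the gap. The Wilson intervals treat genes as independent, which neighbours are not, and the difference between close and far pairs was not tested.

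The limit of 200 bases marks no step in the counts, with 62 convergent pairs in the 20 bases below it and 63 in the 20 bases from it. Just inside lay g9184 and g9185 (scaffold01211) with a gap of 197 bases, and g913 with g914 and g983 with g984 (both scaffold00066) with gaps of 196 bases. Their stop codons were 363, 363 and 623 bases apart. Just outside, with gaps of 200 bases, lay g3302 and g3303 (scaffold00366), g4265 and g4266 (scaffold00557), and g7684 and g7685 (scaffold01012). Their stop codons were 581, 730 and 529 bases apart. In all, 15 pairs had a gap of 196 bases, and pairs with equal gaps were named in order of scaffold and position. The named pairs are therefore examples and no comparison across the limit.

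Away from the shared 3' end, the genes and their surroundings were compared on 7 measures. None of the 8 tests, which count the strand comparison above, passed an adjusted p of 0.05, and 1 of them had an unadjusted p under 0.05. Each measure was tested on 42 scaffolds with at least 5 close and 5 far pairs, which held 1150 close and 1438 far pairs, with an exact two-sided sign test over scaffolds adjusted over 8 tests by the Benjamini-Hochberg method. The medians, means and shares given for close and far pairs are over all pairs of each kind, and the counts of scaffolds and the differences are over the 42 scaffolds. The 5' untranslated length had a median of 73 bases in close and 76 bases in far pairs. It was higher in close pairs on 17 scaffolds and lower on 24 (median difference -2.75 bases, 95% interval -11 to 11; exact p = 0.349, adjusted p = 0.698). Coding length had a median of 1149 bases in close and 1068 bases in far pairs and was higher on 25 scaffolds and lower on 17 (median difference 69 bases, 95% interval -19.5 to 142.5; exact p = 0.280, adjusted p = 0.698). These intervals leave room for differences of the sizes they span.

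The inner build of the genes was compared in the same way. The number of coding segments averaged 9.56 per gene in close and 9.52 in far pairs, and was higher on 20 scaffolds and lower on 22 (median difference -0.07, 95% interval -0.81 to 0.50; exact p = 0.878, adjusted p = 0.878). Coding introns had a median of 202 bases in close and 212 bases in far pairs. They were shorter in close pairs on 24 scaffolds and longer on 16 (median difference -3 bases, 95% interval -9 to 2; exact p = 0.268, adjusted p = 0.698). With a limit of 100 bases for close pairs, the call changed, with shorter introns on 29 of 37 scaffolds, a median difference of -8 bases and an adjusted p of 0.00602 in the same exact test. Over the main test and its 11 alternatives the adjusted p of intron length ranged from 0.00602 to 0.859. Each alternative was adjusted over its own tests alone, here and below. The mean score that the prediction program gave to the coding segments of a gene had a median of 0.963 in close and 0.959 in far pairs, and was higher on 22 scaffolds and lower on 20 (exact p = 0.878, adjusted p = 0.878).

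**Figure D4:**
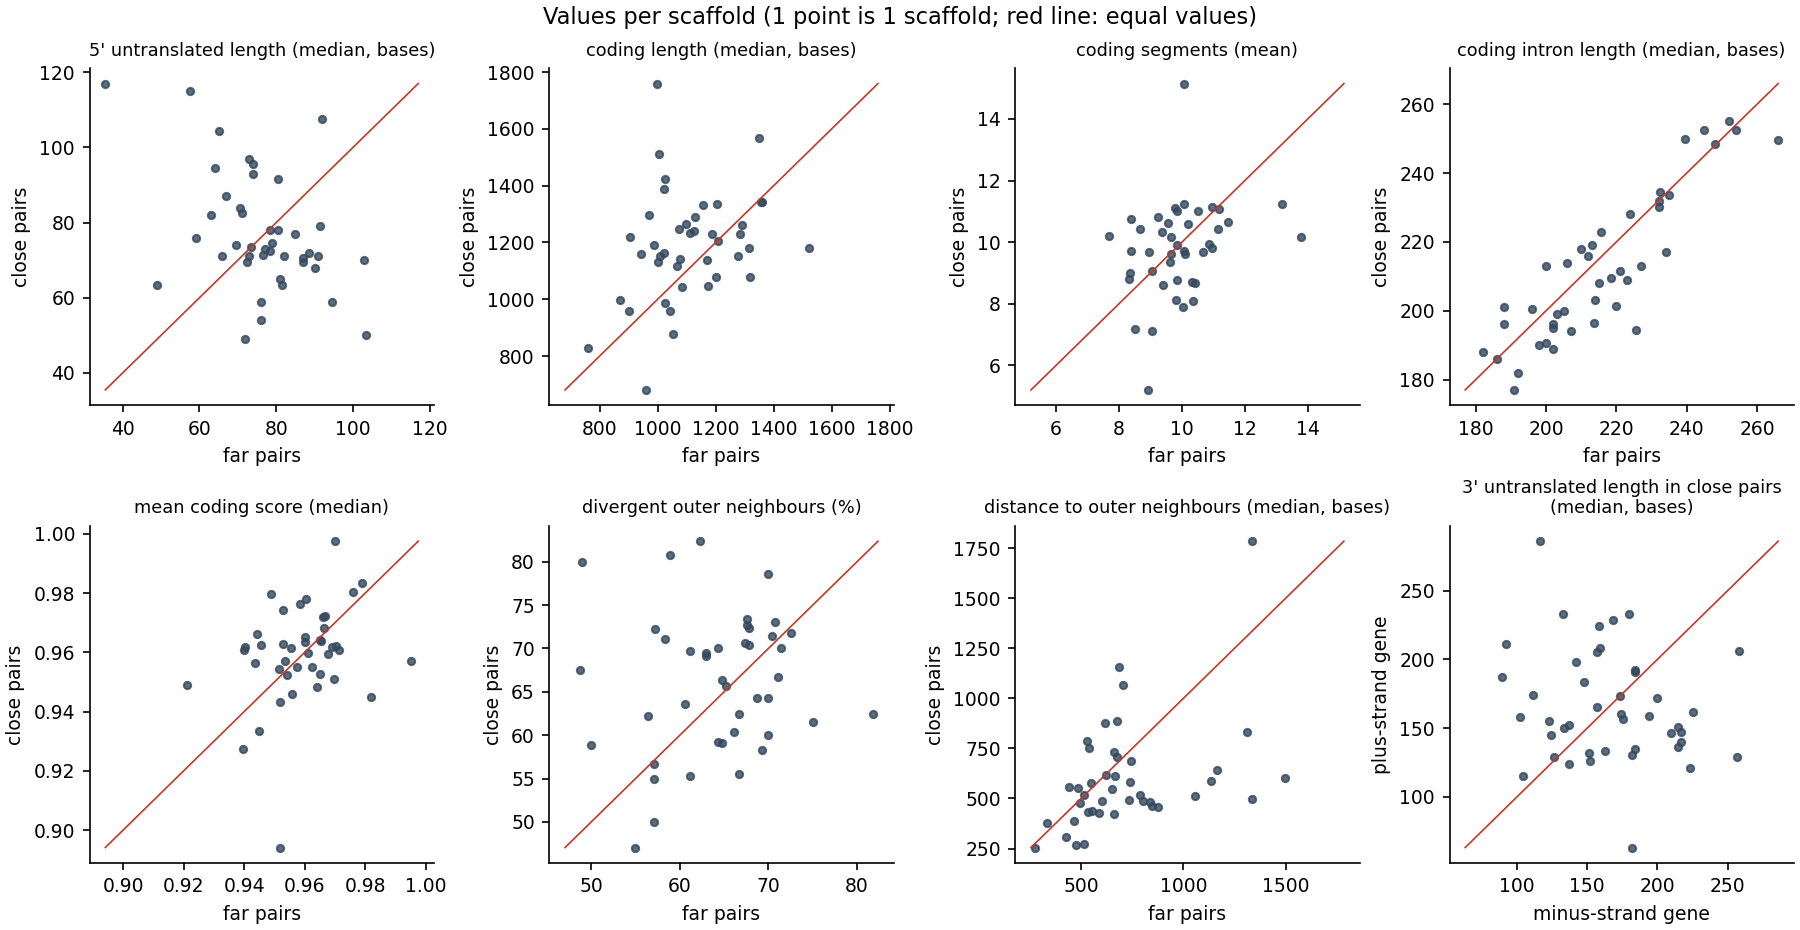
Each point is 1 scaffold, with the value of its far pairs on the x axis and of its close pairs on the y axis for 7 measures, and, for the strand comparison, the median 3' untranslated length of minus-strand against plus-strand genes of close pairs; the red line marks equal values. Points lie on both sides of the line in every plot, and for the distance to outer neighbours 28 of 42 scaffolds lie below it. The strand plot shows separate medians of each strand, while its test used the median of differences within pairs. A point can therefore lie on the other side of the line from the sign that was tested.

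Genes beyond the pair were most often on the opposite strand, in close and far pairs alike. Of 2407 outer neighbours of close pairs, 1600 (66.5%) were divergent to the adjoining gene of the pair, against 1995 of 3153 (63.3%) for far pairs. Over the whole series, 2888 neighbouring pairs without overlap were divergent and 3241 lay on 1 strand. A divergent pair counts from both of its genes and a pair on 1 strand from only 1. Neighbours on the 5' side were thus mostly divergent in the whole series, and these shares are not particular to convergent pairs. The share was higher for close pairs on 23 scaffolds and lower on 19 (median difference 1.3 percentage points, 95% interval -4.17 to 5.16; exact p = 0.644, adjusted p = 0.859). Outer neighbours that overlapped the pair were left out of the distances, which left 2403 for close and 3149 for far pairs. These outer neighbours stood a median of 515 bases away from close pairs and 645 bases from far pairs. They were nearer to close pairs on 28 scaffolds and farther on 13, with 1 equal (median difference -104.75 bases, 95% interval -206 to -5). The exact test gave p = 0.0275, which did not pass after adjustment (adjusted p = 0.220). With a limit of 300 bases it passed, with nearer neighbours on 33 of 46 scaffolds and an adjusted p of 0.0363 in the exact test, and over all 11 alternatives and the main test the adjusted p ranged from 0.0363 to 1.

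Some close pairs stood in longer runs of packed genes, in which every neighbour was less than 200 bases from the next. The 1263 close pairs fell into 1193 runs, and 825 of them (65.3%) formed a run of 2 genes by themselves. Runs of at least 5 genes numbered 29 and held 55 close pairs. The longest run had 8 genes, g6222 to g6229 on scaffold00902, between bases 14076 and 43060. Its genes covered 28101 of 28985 bases, and its 3 convergent pairs had gaps of 191, 41 and 82 bases. The run of 7 genes from g4636 to g4642 (scaffold00629, bases 310889 to 334952) alternated strands from end to end, with convergent gaps of 2, 36 and 142 bases and divergent gaps of 105 to 195 bases. In the run from g1984 to g1990 (scaffold00178) the convergent gaps were 18, 86 and 57 bases. A total of 5 runs had 7 genes, and the rule named the first 4 of them by scaffold and position and left out 1. The other 2 named lay on scaffold00230 (g2117 to g2123) and scaffold00514 (g3889 to g3895), each with 2 close convergent pairs.

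**Figure D5:**
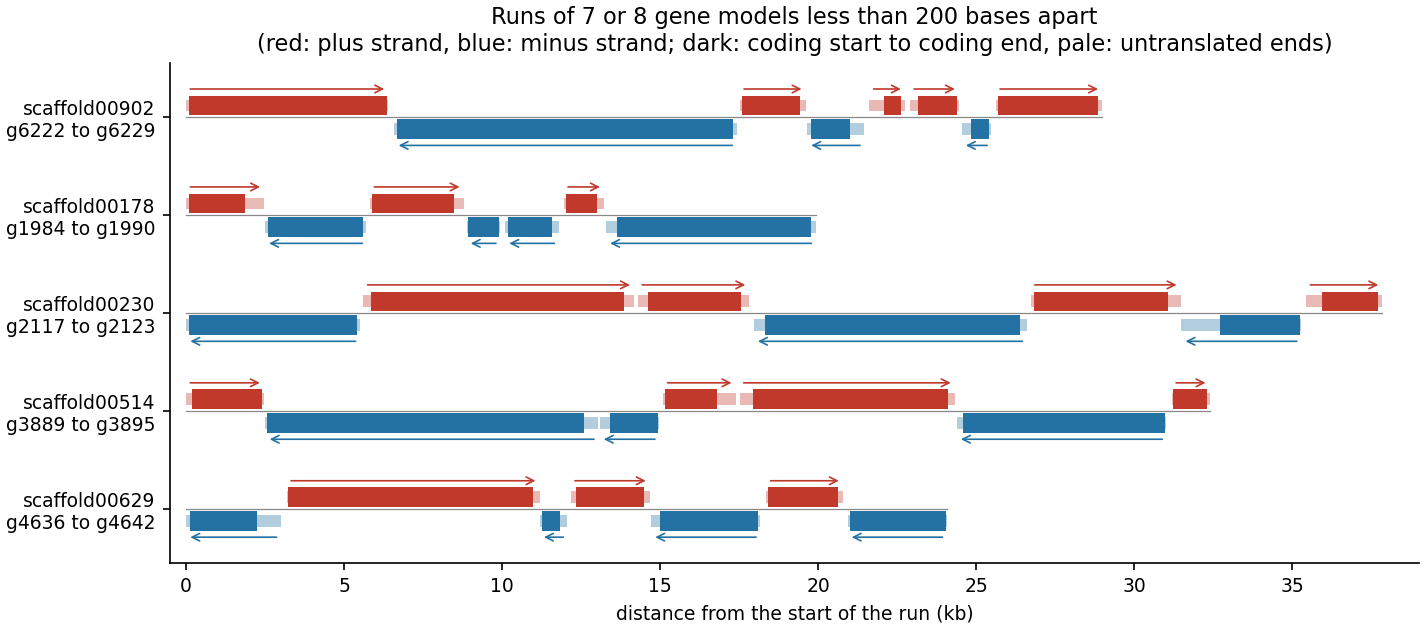
Gene models of the run of 8 genes and of 4 of the 5 runs of 7 genes are drawn to scale by distance from the start of the run in kb, plus-strand genes in red above the line and minus-strand genes in blue below it, with untranslated ends in pale colour. Arrowheads that meet mark the convergent pairs, and the run on scaffold00629 alternates strands along all of its 7 genes.

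Close pairs were spread over 123 scaffolds, and 94.9% of them lay on scaffolds with an annotated span of at least 100 kb. Scaffold00366 held the most with 105, followed by scaffold01012 with 102 and scaffold00012 with 82. On the 34 scaffolds with at least 20 convergent pairs, the share of these that were close had a median of 43.8% and ranged from 24.1% on scaffold00600 to 56.5% on scaffold01094. On the same scaffolds there was a median of 2.30 close pairs per 100 kb. The medians of single scaffolds also differed, and whether by more than their small numbers of pairs give was not tested. On the 19 scaffolds with at least 20 close pairs, the median gap ranged from 36 bases (scaffold01168) to 92 bases (scaffold00514). The median 3' untranslated length ranged from 129 bases (scaffold00132) to 222.5 bases (scaffold00066), and the median distance between stop codons from 332 bases (scaffold01168) to 566 bases (scaffold00066).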

How the data were processed

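The file holds 345615 lines of gene models for the whole series, with AUGUSTUS named as their source per the file itself. Scores of genes and coding segments are the score deposited by the authors, between 0.01 and 2, so they were not read as probabilities. TopHat 1.3.3 and Cufflinks appear in the submitters' processing notes. The sources used here do not state the assembly version, the settings of the prediction or its evidence, so whether reads shaped the transcript ends is unknown.

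From the models, gaps, spliced 3' untranslated lengths and distances between coding ends, which include the stop codon, were computed with Python 3.11.15, NumPy 2.4.6 and SciPy 1.17.1, with coordinates counted from 1. No filter removed a pair of the rule. Medians carry 95% binomial rank intervals. Shares with an interval carry 95% Wilson intervals, which treat genes or pairs as independent although neighbours are not. Close minus far differences were taken within scaffolds and tested with exact sign tests over scaffolds, leaving out differences of 0. The code was tested on simulated data. The alternatives numbered 10, and 1 more, leaving out gaps that end in 6, was added after seeing the data. Named pairs were taken by rank of gap, distance between stop codons, 3' length, inequality and run length. The members, measures and rules were chosen with earlier results of these data known. Genome sequence was not used here, so no sequence is shown.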

Additional observations from a re-analysis of the deposited data

How the results depend on the processing

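The alternatives gave 87 values of tested results, of which 74 had the main direction and call, 2 gained a call and 7 changed direction without a call on either side. The other 4 had no direction, with as many scaffolds higher as lower. The gained calls were coding intron length with a limit of 100 bases (-8 bases) and distance to outer neighbours with a limit of 300 bases (-99.25 bases). Adjustment was made within each alternative and not over the 87 values, so these calls take no account of the number of alternatives. With a limit of 100 bases, coding length turned to -1.5 bases and coding score to -0.00230. With a limit of 300 bases, 5' untranslated length turned to 2.5 bases and the strand difference in 3' length to 6 bases. That strand difference was 1 base without introns in the 3' untranslated part. Coding length was -37.5 bases with a coding score of at least 0.95, and coding segments 0.193 without gaps ending in 6. Of 36 values without a test, 25 stayed within the rank interval or, for counts, within 1.5 times, and 11 moved. The median gap was 36 bases with a limit of 100, 86 with a limit of 300 and 55 without gaps ending in 6. The median distance between stop codons was 402, 484 and 482 bases in the same order, and 490 at the higher score. Median 3' length was 178.5 bases at the higher score and 167 without gaps ending in 6, with 419 and 659 close pairs left. The cause of these shifts was not tested, except that the limits change the gap by construction. No paired analysis was possible because positions in an annotation belong to no library and so to no replicate number. Pairing within scaffolds is part of the main tests.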

Other observations

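Genes whose 3' end faces a neighbour on the same strand had longer 3' untranslated regions when that neighbour was close. The median was 232.5 bases (95% interval 205 to 251, n = 338 genes) with less than 200 bases to the next gene, and 151 bases (144 to 155, n = 2903) with more. The corresponding medians of convergent pairs were 158 and 128.5 bases, so a near neighbour went with the longer median in both orientations. The gap is measured from the end of the 3' untranslated region in both, and no test was made.

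Very short 3' untranslated regions were listed more often in far pairs whose gap ended in 6. A length under 30 bases was found in 228 of 1874 genes of those pairs (12.2%) and in 93 of 1424 genes of the other far pairs (6.53%). In close pairs the shares were 59 of 1208 (4.88%) and 41 of 1318 (3.11%). Among divergent neighbours at least 200 bases apart, 2167 of 2229 gaps (97.2%) ended in 5.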
